A study of Mus musculus with 12 samples.

Results

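Cytosolic sulfotransferases and Papss2, an enzyme that makes their sulfate donor, were followed across 4 groups of mouse liver. The 10 genes named were Sult1a1, Sult1b1, Sult1c2, Sult1d1, Sult1e1, Sult2a1, Sult2a2, Sult3a1, Sult5a1 and Papss2, and their probe sets were taken wherever the array annotation gave one of these symbols. This found 13 of 45101 probe sets, for 9 of the 10 genes out of 18194 genes with a probe set of their own, and 0 of the 13 listed more than 1 gene. Sult2a1, on chromosome 7 at 13796246 to 13837410, was given no probe set by the annotation and was not analysed here. Of the 13 probe sets, 12 passed the filter on low signal and were tested. The exception was 1 of the 4 probe sets of Papss2, 1421988_at, whose signal of 2.3 to 59.1 never reached the median of its array.

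The livers came from adult female mice of B6.129 background that were WT (Esr1+/+) or αERKO (Esr1-/-), the latter lacking intact Esr1, the gene of estrogen receptor alpha, in every cell of the body. For 2 weeks each genotype received either NIH-31, called normal diet here, or a high-fat research diet with 60 kcal% fat. The labels do not say that both diets match in other ingredients, so a diet difference is one between whole diets. Each of the 4 groups held 3 samples with 1 Affymetrix array each, and values are MAS5 signals on a linear scale.

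Sulfotransferases move a sulfonate group from the donor PAPS onto hydroxyl or amino groups of hormones, bile acids, neurotransmitters and drugs, which makes these molecules more soluble in water and usually ends their activity. PAPS is built from sulfate and ATP by the bifunctional PAPS synthases, and Papss2 encodes the main form in liver. Rodent liver is known for large sex differences in this family, with hydroxysteroid sulfotransferases of the 2A group and the amine sulfotransferase Sult3a1 higher in females.

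Esr1 signal lay between 1963.2 and 3929.6 on the 6 WT arrays and between 586.1 and 885.3 on the 6 αERKO arrays, so no library went against its genotype label. Where these probes lie relative to the disrupted part of Esr1 is not given in the sources used here. All 9 measured hepatocyte markers were above the array median on all 12 arrays, with a mean log2 signal of 15.2 to 15.7. Their mean was lower in αERKO than in WT without overlap on normal diet (15.3 to 15.6 against 15.6 to 15.7) and overlapped on high-fat diet (15.2 to 15.5 against 15.4 to 15.5). Alb, the albumin gene, was lower in αERKO on normal diet by limma (-0.50 ± 0.10, adjusted p = 0.0362) and not past the threshold on high-fat diet (-0.20 ± 0.10, 0.407). The normal-diet call of Alb was lost when any 1 of 8 arrays was left out, all but WT high-fat replicates 1 and 2 and αERKO high-fat replicates 2 and 3, with adjusted p of 0.0565 to 0.136. It was also lost with median centring (-0.35, limma adjusted p = 0.471) and with quantile normalization (-0.25, 0.120). The same held without the filter (0.147), without the intensity trend (0.256) and with only the groups compared (0.0909). The part of this shift in the genotype differences was not tested. Transcripts of other tissues were present on some arrays. The mean log2 signal of 8 pancreatic acinar markers was 13.9 on WT normal replicate 2, 13.5 on αERKO normal replicate 1, 12.5 on WT high-fat replicate 3 and 9.94 on WT high-fat replicate 2, against 5.01 to 6.17 on the other 8 arrays. The mean of 10 skeletal muscle markers was 10.6 on αERKO normal replicate 1, 8.65 on αERKO high-fat replicate 2 and 7.25 on αERKO normal replicate 2, against 5.40 to 6.81 on the other 9. In bulk tissue, fewer cells of a type and less RNA per cell cannot be told apart.

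Sult2a2 and Sult3a1 were read brightly on every WT array and near background on every αERKO array. Sult2a2 is a hydroxysteroid and bile acid sulfotransferase of the mouse 2A cluster, which holds 8 genes on chromosome 7 between 13623967 and 14493023 (GRCm38.p6). Only 2 of these genes have a probe set of their own, and the cluster's transcripts are alike, so the Sult2a2 signal may include transcripts of its neighbours. Sult3a1, on chromosome 10 at 33851020 to 33879475, encodes an amine sulfotransferase and lies 64315 bases from its closest relative, Sult3a2, which has no probe set of its own here. The 250 bases before the Sult3a1 start used in the RefSeq promoter table (chr10:33857472-33857721, plus strand, GRCm38.p6), a start that lies inside the annotated span of the gene and not at its upstream end, are shown because this gene had the lowest adjusted p for genotype among the 12 probe sets tested. Capitals mark the only match found in it, TTCTTTGAA, to the STAT5 core TTCNNNGAA.
Sult3a1: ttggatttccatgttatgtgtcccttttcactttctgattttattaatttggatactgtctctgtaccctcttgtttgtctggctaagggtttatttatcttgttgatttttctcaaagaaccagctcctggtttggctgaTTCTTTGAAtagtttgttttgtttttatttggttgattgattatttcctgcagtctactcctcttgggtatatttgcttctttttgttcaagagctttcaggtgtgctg
That core was present in 8.3% of all 32851 promoter windows of 300 bases, searched on both strands, and the match lies 109 bases before that internal start.

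On normal diet, Sult2a2 signal in WT replicates 1, 2 and 3 was 7770.4, 39168.5 and 29592.2. The αERKO replicates on the same diet gave 32.0, 26.5 and 29.6. The groups were far apart, and all 3 αERKO values were below the median signal of their arrays, which lay between 75.6 and 114 over all arrays. On high-fat diet the WT replicates gave 15512.4, 1468.2 and 23997.9, and the αERKO replicates 42.5, 52.7 and 90.7, again all below their array medians. The lowest WT array was thus still well above the highest αERKO array. The αERKO minus WT difference, on the log2(signal + 16) scale, was -8.84 ± 0.78 (SE, n = 3 and 3) on normal diet, with limma adjusted p = 2.24e-05. It was -6.77 ± 0.78 on high-fat diet, with limma adjusted p = 0.00034. Since a signal near background has no exact fold, the WT mean was also set against the αERKO arrays with each value raised to its array median, which gave at least 208-fold on normal diet and at least 82.7-fold on high-fat diet.

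For Sult3a1 the WT replicates on normal diet read 13246.0, 6415.5 and 8073.9, and those of αERKO 52.6, 16.6 and 74.1. On high-fat diet WT read 6323.1, 9107.1 and 2066.2, and αERKO read 88.7, 57.4 and 67.1. The groups did not overlap on either diet, and 5 of the 6 αERKO arrays were below their array median, the exception being high-fat replicate 1. The log2 difference was -7.24 ± 0.46 (SE, limma adjusted p = 1.2e-06) with normal diet. With high-fat diet it was -5.84 ± 0.46 (adjusted p = 1.04e-05). With the array median as floor, WT was at least 88.3-fold higher on normal diet and at least 47.6-fold higher on high-fat diet.

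**Figure D1:**
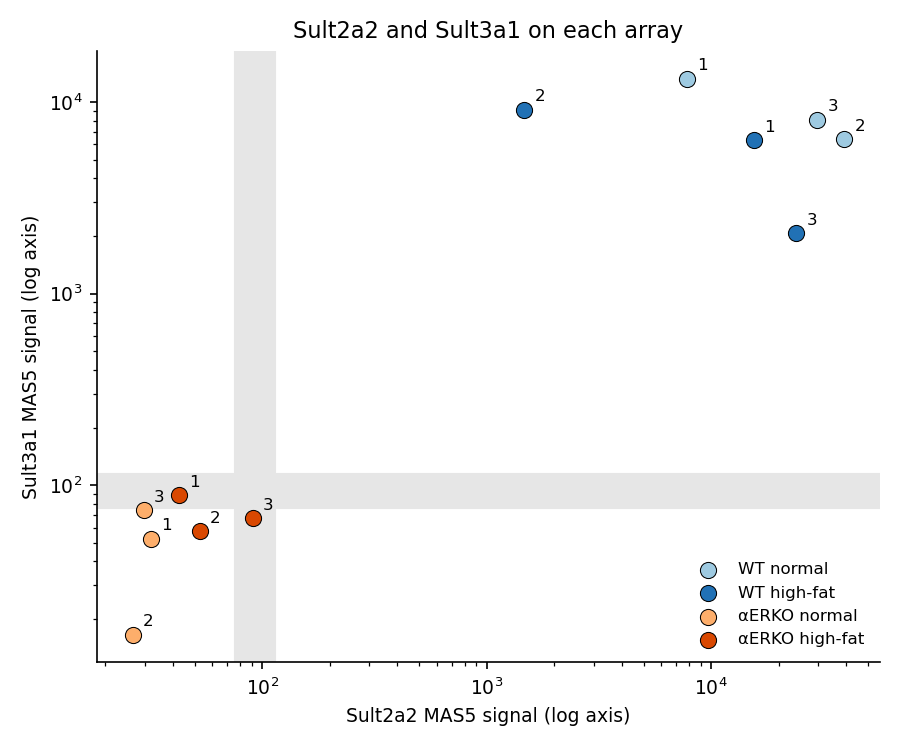
MAS5 signal of Sult2a2 (x axis, log) against Sult3a1 (y axis, log) on the 12 arrays, with 1 point per array, coloured by group and numbered by replicate; grey bands span the array medians, 75.6 to 114. The 6 αERKO arrays lie in or below both bands, and WT high-fat replicate 2 has the lowest Sult2a2 signal of the WT arrays at 1468.2.

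A lower level in αERKO was called for 2 of the 12 tested probe sets on each diet, against 0.346% of all 25412 probe sets tested called lower on normal diet and 0.559% on high-fat diet. Those called, Sult2a2 and Sult3a1, passed the filter only through their WT arrays, so this count is a description and not a test. Both genes kept their call without any single array and without the 4 arrays that carried pancreatic transcripts. There the log2 difference of Sult2a2 was -8.43 (normal diet) and -7.69 (high-fat diet), and that of Sult3a1 -7.58 and -6.20; WT high-fat then has 1 array, which is assumed to vary like the others. The size for Sult2a2 rested on single arrays: it was -9.55 without WT normal replicate 1, -8.00 without WT high-fat replicate 2 and -5.99 without WT high-fat replicate 3. For Sult3a1 the high-fat value was -6.46 without WT high-fat replicate 3, and the normal-diet value was -6.62 without the 3 arrays with muscle transcripts.

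Within WT, Sult2a2 differed widely between arrays of a group. Its highest array was 5.04 times its lowest on normal diet and 16.3 times on high-fat diet. The SD of its log2 signal within the WT groups was 1.76, larger than that of 99.8% of tested probe sets (median 0.267), and rank 3 from the top among the 6219 probe sets with a mean log2 signal above 10 in WT. Sult3a1 had an SD of 0.87, larger than that of 95.4%, but its high and low arrays were not those of Sult2a2 on either diet. WT normal replicate 1 had the lowest Sult2a2 and the highest Sult3a1 signal of its group. In WT normal replicate 2 Sult2a2 was highest and Sult3a1 lowest. WT high-fat replicate 2 had the lowest Sult2a2 and the highest Sult3a1 signal of its group, and replicate 3 the highest Sult2a2 and the lowest Sult3a1. These 2 arrays and WT normal replicate 2, which had the highest Sult2a2 signal of all, are the 3 WT arrays with pancreatic transcripts, whose part in this spread was not tested.

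Diet gave no call for either gene. In WT the high-fat minus normal difference was -1.34 ± 0.78 for Sult2a2 (limma adjusted p = 0.757, 95% interval -3.02 to 0.33) and -0.84 ± 0.46 for Sult3a1 (0.735, -1.83 to 0.15). The groups overlapped in both cases, and without the 4 arrays with pancreatic transcripts the Sult2a2 difference was 0.03. In αERKO it was 0.73 ± 0.78 for Sult2a2 (0.845) and 0.56 ± 0.46 for Sult3a1 (0.777), between signals near background. The αERKO groups overlapped for Sult3a1 but not for Sult2a2, at 26.5 to 32.0 on normal diet and 42.5 to 90.7 on high-fat diet. The SE uses a spread shared by all groups, while the SD of Sult2a2 within groups was 0.32 in αERKO and 1.76 in WT.

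Likeness was measured as the root mean square difference between 2 genes' log2 signals over the 12 arrays, each centred on its own mean. By this the 5 genes most like Sult3a1 among 12263 were Cyp2b13 (0.99 log2 units), Cyp3a16 (1.47), Sult2a2 (1.65), Cux2 (1.87) and Slc22a26 (1.94). Cyp2b13 and Cyp3a16 encode cytochrome P450 enzymes, Cux2 a transcription factor and Slc22a26 an organic anion transporter. Between the genotypes, Cyp2b13 differed by -7.36 ± 0.29 (normal diet) and -5.75 ± 0.29 (high-fat diet). The arrays are those on which Sult3a1 was described, so this list is a description.

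Another gene of the 2A cluster went the other way. Sult2a8, on chromosome 7 at 14410686 to 14446780, encodes a bile acid sulfotransferase of mouse liver. It was not among the 10 genes. Of 11 further sulfotransferase genes looked up, 5 had a probe set of their own, and Sult2a8 was the only 1 of these 5 that passed the filter. WT replicates gave 21134.1, 16541.2 and 14468.2 with normal diet, then 20073.5, 22283.4 and 18529.6 with high-fat diet. The αERKO replicates gave 28219.5, 30535.4 and 27247.7 with normal diet, then 28009.4, 31540.1 and 32225.5 with high-fat diet. All 6 αERKO arrays were above all 6 WT arrays. The log2 difference was 0.74 ± 0.12 on normal diet (limma adjusted p = 0.00787) and 0.59 ± 0.12 on high-fat diet (0.0281). The first call was lost without αERKO normal replicate 2 (0.69, adjusted p = 0.0530). The second was lost without 1 of 5 arrays in turn, namely WT high-fat replicates 1 and 3 and αERKO high-fat replicates 1, 2 and 3, where the difference stayed between 0.53 and 0.66 and adjusted p between 0.0524 and 0.134. Over both diets together the difference was 0.67 ± 0.09 (adjusted p = 0.000422), a contrast added after the values were seen, and it passed without each single array. Both single-diet calls were lost without the 4 arrays with pancreatic transcripts (adjusted p = 0.147 and 0.351 on normal and high-fat diet), without the 3 with muscle transcripts (0.472 and 0.193) and without the intensity trend of the fit (0.110 and 0.162). The normal-diet call was also lost with only the groups compared (0.0667), and the high-fat call with median centring (0.118) and without the filter (0.0621).

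Of the phenol sulfotransferases, Sult1b1, Sult1d1 and Sult1e1 lie side by side on chromosome 5, with 16454 bases between the first pair and 6961 between the second. Sult1b1 (87513327 to 87538195) encodes an enzyme that sulfates thyroid hormones and phenols, and Sult1d1 (87554650 to 87569006) one that sulfates dopamine and other catecholamines in mouse. Both rose with high-fat diet in αERKO, so the 250 bases before their RefSeq starts are shown (GRCm38.p6, minus strand, chr5:87538196-87538445 and chr5:87569007-87569256).
Sult1b1: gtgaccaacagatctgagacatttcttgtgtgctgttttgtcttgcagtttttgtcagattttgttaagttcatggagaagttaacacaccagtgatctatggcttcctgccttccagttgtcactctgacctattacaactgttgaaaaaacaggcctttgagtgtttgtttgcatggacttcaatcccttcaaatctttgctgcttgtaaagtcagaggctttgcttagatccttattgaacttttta
Sult1d1: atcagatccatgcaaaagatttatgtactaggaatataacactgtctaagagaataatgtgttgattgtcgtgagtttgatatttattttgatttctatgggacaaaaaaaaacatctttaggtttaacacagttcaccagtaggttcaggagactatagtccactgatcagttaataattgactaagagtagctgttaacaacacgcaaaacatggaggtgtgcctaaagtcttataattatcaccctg
Neither holds any of the 6 motifs searched, so no letters are in capitals. The motifs were the STAT5 core TTCNNNGAA, the HNF6 and CUX2 core ATCAATA (2.05% of windows), the HNF4A motif CAAAGTCCA (0.475%), the full palindromic estrogen response element (0.07%), the direct repeat bound by CAR and PXR (0.0152%) and the HNF1 palindrome (0.0609%), each on both strands. That none matched says only that these letters are not in these windows. A second RefSeq window of Sult1b1, at a start further inside the gene, holds CAAAGTCCA just after that start.

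Sult1b1 had its highest signal in the αERKO high-fat group. WT replicates read 516.1, 481.9 and 518.9 with normal diet, then 693.6, 566.7 and 579.0 with high-fat diet. In αERKO they read 534.7, 679.7 and 616.7 with normal diet, then 1219.0, 1047.1 and 1110.3 with high-fat diet. In each of the 4 comparisons the groups did not overlap, and the αERKO high-fat group stood clear of the other 9 arrays. Sult1b1 rose with high-fat diet in αERKO, by 0.87 ± 0.14 (limma adjusted p = 0.0246), a fold of 1.83 with a 95% interval of 1.48 to 2.25. On high-fat diet it was higher in αERKO than in WT by 0.86 ± 0.14 (adjusted p = 0.00598, 1.82-fold, 1.48 to 2.24). The genotype difference on normal diet was 0.26 ± 0.14 (0.544) and the diet difference in WT was 0.27 ± 0.14 (0.710), neither past the threshold. The difference between the 2 diet responses was 0.60 ± 0.20, with unadjusted p = 0.00874 and limma adjusted p = 0.883, so a genotype-dependent response was not shown.

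The αERKO high-fat group was also the only one with no array rich in pancreatic transcripts, its acinar score being 5.01 to 5.57 against highest values of 13.9, 12.5 and 13.5 in the other groups. Without the 4 arrays rich in them, Sult1b1 was higher by 0.68 for genotype on high-fat diet (adjusted p = 0.300) and by 0.78 for diet in αERKO (0.187). The diet call in αERKO was also lost without αERKO normal replicate 1 (0.78, adjusted p = 0.109) or 3 (0.88, 0.0977). The same held without αERKO high-fat replicate 1 (0.81, 0.141), 2 (0.92, 0.0923) or 3 (0.88, 0.0583). That call was lost too with median centring (limma adjusted p = 0.0880), without the intensity trend of the fit (0.107) and with only the groups compared (0.106). Without the 3 arrays with muscle transcripts the difference was 0.90, and the call was not kept.

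Sult1d1 read higher on high-fat diet in both genotypes, with no genotype call. Its probe set of higher signal, 1448973_at, read 14367.0, 10173.1 and 8378.4 in WT with normal diet, then 16845.2, 21919.2 and 19920.3 with high-fat diet. In αERKO it read 15957.5, 11449.8 and 10976.3 with normal diet, then 21771.2, 20855.7 and 16140.6 with high-fat diet. All 6 high-fat arrays were above all 6 normal-diet arrays, and the same held for the second probe set, 1418138_at, at 2802.4 to 3982.7 on normal diet and 5060.5 to 7028.2 on high-fat diet. Within single genotypes, the difference of 1448973_at was 0.86 ± 0.19 in WT (limma adjusted p = 0.178) and 0.62 ± 0.19 in αERKO (0.280). For 1418138_at it was 0.80 ± 0.15 in WT (0.0862) and 0.81 ± 0.15 in αERKO (0.0491), the latter being the only call. Without αERKO normal replicate 1 that call held, and in WT the adjusted p became 0.0497. Without each of the other 11 arrays in turn the αERKO call was lost, with adjusted p from 0.0559 to 0.231.

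Averaged over both genotypes, a contrast added after the values were seen, Sult1d1 rose by 0.81 ± 0.11 at 1418138_at (limma adjusted p = 0.00307, 1.75-fold, 95% interval 1.49 to 2.05) and by 0.74 ± 0.13 at 1448973_at (0.0274). The first call passed without each single array but was lost without the intensity trend of the fit (limma adjusted p = 0.0657). The second was lost without WT normal replicate 3 and without WT high-fat replicate 2 or 3. The same held without αERKO normal replicate 2 or 3 and without αERKO high-fat replicate 1 or 2. Adjusted p was 0.0620 to 0.0823 with these arrays left out in turn. The second call was lost too with median centring (0.77, limma adjusted p = 0.151) and without the trend (0.189). Without the 3 arrays with muscle transcripts the difference was 0.82 at both probe sets, and neither call was kept. Without the 4 with pancreatic transcripts 1448973_at differed by 0.70, and its call was not kept. The genotype differences lay between -0.07 and 0.24, none past the threshold, with 95% intervals of -0.17 to 0.64 (normal diet) and -0.41 to 0.41 (high-fat diet) at 1448973_at and of -0.40 to 0.25 and -0.39 to 0.25 at 1418138_at. The interactions were -0.24 ± 0.27 and 0.01 ± 0.21.

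**Figure D2:**
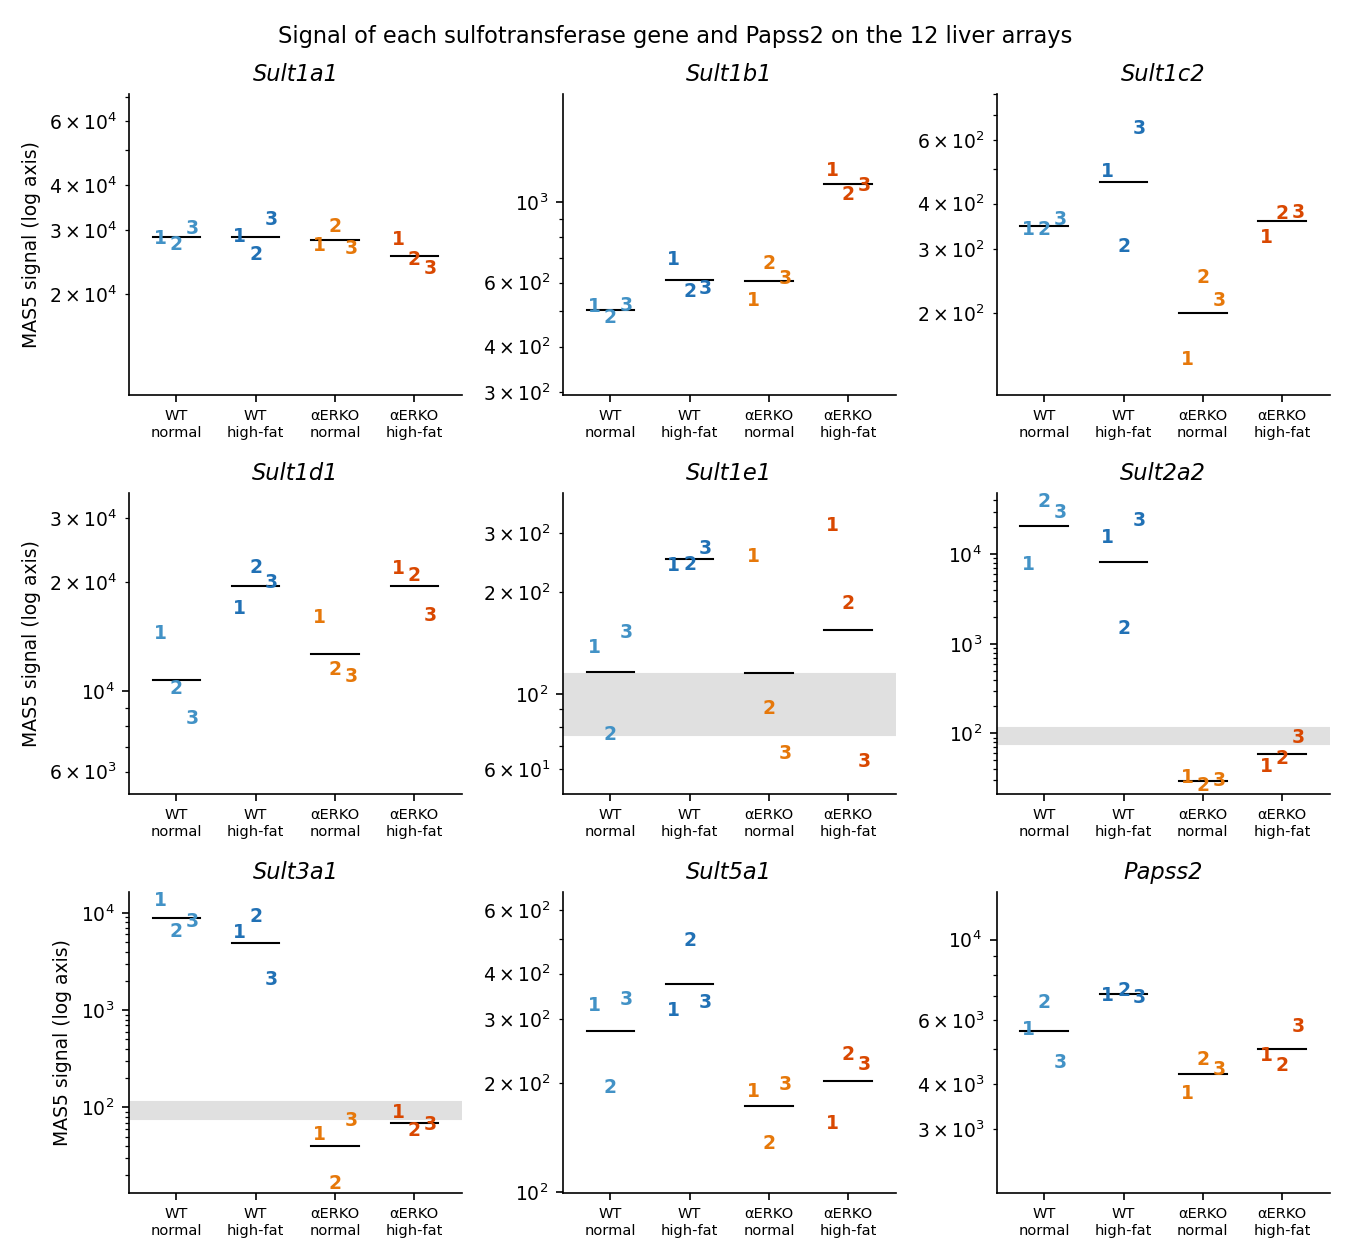
MAS5 signal (log axis, own scale in each panel) for each of the 9 genes, by its probe set of highest mean; digits are replicates 1 to 3, black lines are geometric means of 3 samples, and grey bands mark the range of array medians where they fall in the panel. Sult2a2 and Sult3a1 separate by genotype, Sult1d1 by diet, and Sult1b1 is highest in the αERKO high-fat group.

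Sult1a1, the general phenol sulfotransferase of liver, on chromosome 7 at 126672865 to 126690443, gave no call. WT arrays read 28402.9, 27400.3 and 30418.8 with normal diet, then 28943.9, 25670.8 and 32156.9 with high-fat diet, and αERKO arrays 27249.3, 30778.0 and 26737.1 and then 28322.4, 24934.3 and 23504.6. The groups overlapped in all 4 comparisons. The 95% intervals of the log2 differences bound any change: -0.24 to 0.19 for genotype on normal diet, -0.39 to 0.04 for genotype on high-fat diet, -0.21 to 0.22 for diet in WT and -0.36 to 0.07 for diet in αERKO.

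Sult1e1, the estrogen sulfotransferase, on chromosome 5 at 87575968 to 87591611, was close to background. Its signal was 137.5, 75.8 and 151.9 in WT on normal diet, 240.0, 242.3 and 270.4 in WT on high-fat diet, 255.2, 90.7 and 66.8 in αERKO on normal diet and 316.0, 185.3 and 63.3 in αERKO on high-fat diet. The WT groups did not overlap, but the αERKO arrays covered the whole range and 3 of the 12 arrays were below their median. The diet difference in WT was 1.0 ± 0.49 (limma adjusted p = 0.675), and the genotype difference was 0.01 ± 0.49 on normal diet (0.998) and -0.61 ± 0.49 on high-fat diet (0.627). The 95% intervals of these genotype differences, -1.03 to 1.04 and -1.65 to 0.43, do not show that the groups were alike.

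Sult1c2, on chromosome 17 at 53829637 to 53845958, is a phenol sulfotransferase of the 1C group. It read 340.2, 340.1 and 361.8 in WT on normal diet and 148.8, 249.8 and 215.9 in αERKO, with no overlap. On high-fat diet it read 491.1, 305.4 and 643.8 in WT and 322.6, 376.5 and 378.6 in αERKO, which overlapped. The genotype differences were -0.75 ± 0.24 (limma adjusted p = 0.250) and -0.35 ± 0.24 (0.573), and the diet difference in αERKO was 0.79 ± 0.24 (0.281). None passed.

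Sult5a1, on chromosome 8 at 123142843 to 123158914, is a member whose substrate is not established. WT arrays read 326.9, 194.0 and 340.7 with normal diet, then 317.7, 493.6 and 333.9 with high-fat diet, and αERKO arrays 190.1, 136.1 and 198.6 and then 155.0, 239.8 and 224.6. On high-fat diet all αERKO values were below all WT values, while on normal diet WT replicate 2 lay among the αERKO values. The differences were -0.64 ± 0.26 (limma adjusted p = 0.374) and -0.83 ± 0.26 (0.147). Averaged over diets the difference was -0.74 ± 0.18 (0.0424), a call that held without WT normal replicate 2 but was lost, with adjusted p of 0.0510 to 0.115, without each of the other 11 arrays in turn.

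Papss2, the PAPS synthase, on chromosome 19 at 32595669 to 32667187, was lower in αERKO by its probe set of highest signal, 1434510_at, once diets were averaged. WT arrays read 5668.6, 6718.2 and 4591.1 with normal diet, then 7020.4, 7237.2 and 6937.7 with high-fat diet. The αERKO arrays read 3762.3, 4667.5 and 4393.2 and then 4788.9, 4496.6 and 5766.4. On normal diet WT replicate 3 fell within the αERKO range, and on high-fat diet the groups were apart. The genotype difference was -0.39 ± 0.14 on normal diet (limma adjusted p = 0.299) and -0.50 ± 0.14 on high-fat diet (0.106), neither past the threshold. Averaged over diets it was -0.45 ± 0.10 (0.0227, 0.734-fold, 95% interval 0.635 to 0.849). This call was lost without WT high-fat replicate 1 (adjusted p = 0.0558) or 2 (0.0616) and without αERKO high-fat replicate 1 (0.0607) or 2 (0.0707). It was also lost with median centring (-0.32, limma adjusted p = 0.264) and without the intensity trend of the fit (0.100). Without the 4 arrays with pancreatic transcripts the difference was -0.33, and without the 3 with muscle transcripts it was -0.39. The call was not kept in either of these fits, each of which leaves 1 array in a group.

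The other probe sets of Papss2 gave no call. At 1421987_at the genotype difference was -0.21 ± 0.16 on normal diet and -0.53 ± 0.16 on high-fat diet (limma adjusted p = 0.682 and 0.138). At 1421989_s_at it was -0.66 ± 0.22 on normal diet but 0.14 ± 0.22 on high-fat diet (0.264 and 0.830), and the αERKO arrays read 1246.7, 963.1 and 1039.3 with normal diet, then 2051.6, 2144.1 and 1521.3 with high-fat diet. Those groups did not overlap, with a diet difference of 0.80 ± 0.22 (0.212). The Papss2 direction on high-fat diet therefore depends on the probe set read.

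**Figure D3:**
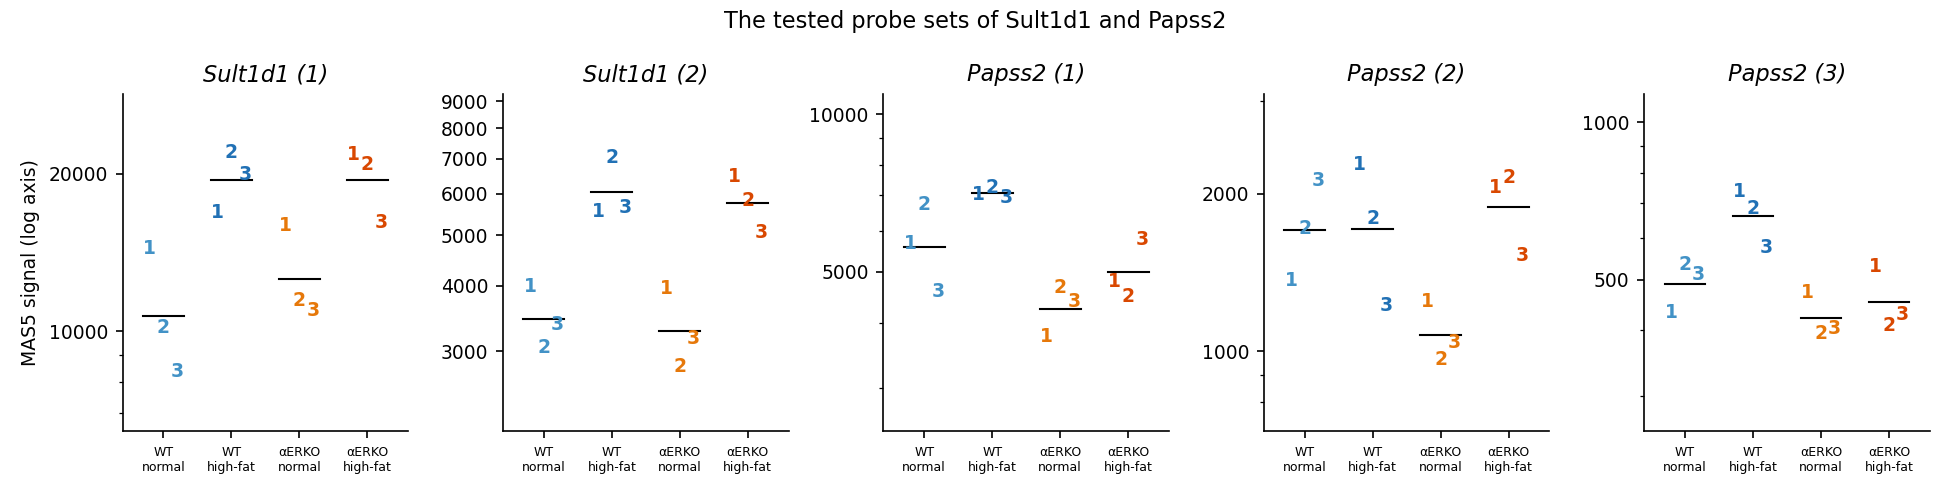
MAS5 signal (log axis, own scale in each panel) of the 2 tested probe sets of Sult1d1, 1448973_at and 1418138_at, and the 3 of Papss2, 1434510_at, 1421989_s_at and 1421987_at, in order of mean signal; digits are replicates 1 to 3 and black lines geometric means of 3 samples. Both Sult1d1 panels step up with diet, while the αERKO high-fat arrays of Papss2 are below WT at 1434510_at and 1421987_at and not at 1421989_s_at.

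Among genes that supply or remove sulfate, a lysosomal sulfatase was the only call. Of 25 such genes named, 24 had a probe set and 23 were tested, and 1 was called in each genotype comparison, where 0.677% (normal diet) and 1.29% (high-fat diet) of all probe sets tested were called. For diet 0 were called, against 0.0275% of all in WT and 0.181% in αERKO. The gene called was Arsa, the lysosomal arylsulfatase A that takes sulfate off sulfatides. It read 543.0 to 857.4 on the 6 WT arrays and 1199.0 to 2146.2 on the 6 αERKO arrays, without overlap. Arsa was higher in αERKO by 1.27 ± 0.18 on normal diet (limma adjusted p = 0.00233) and by 1.13 ± 0.18 on high-fat diet (0.00533). The 5 genes of PAPS synthesis, transport and breakdown (Papss1, Slc35b2, Slc35b3, Bpnt1 and Bpnt2) differed by -0.19 to 0.56 on normal diet and -0.21 to 0.42 on high-fat diet between genotypes, and 0 of them passed. The 9 enzymes that make cysteine or take part in its conversion to sulfate, among them Cdo1 and Suox, differed by -0.18 to 0.69 and -0.32 to 0.53, and 0 passed. On normal diet the widest difference that did not pass was that of the anion exchanger gene Slc26a6, -1.87 ± 0.61 (limma adjusted p = 0.255). Its αERKO signals there were near background, at 15.8, 106.5 and 25.7, with 1 of the 3 above its array median. On high-fat diet its difference was -0.42 ± 0.61 (0.817). The Arsa call on high-fat diet was lost without the 4 arrays with pancreatic transcripts (0.94, adjusted p = 0.115), and that on normal diet without the 3 arrays with muscle transcripts (1.38, 0.0753).

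**Figure D4:**
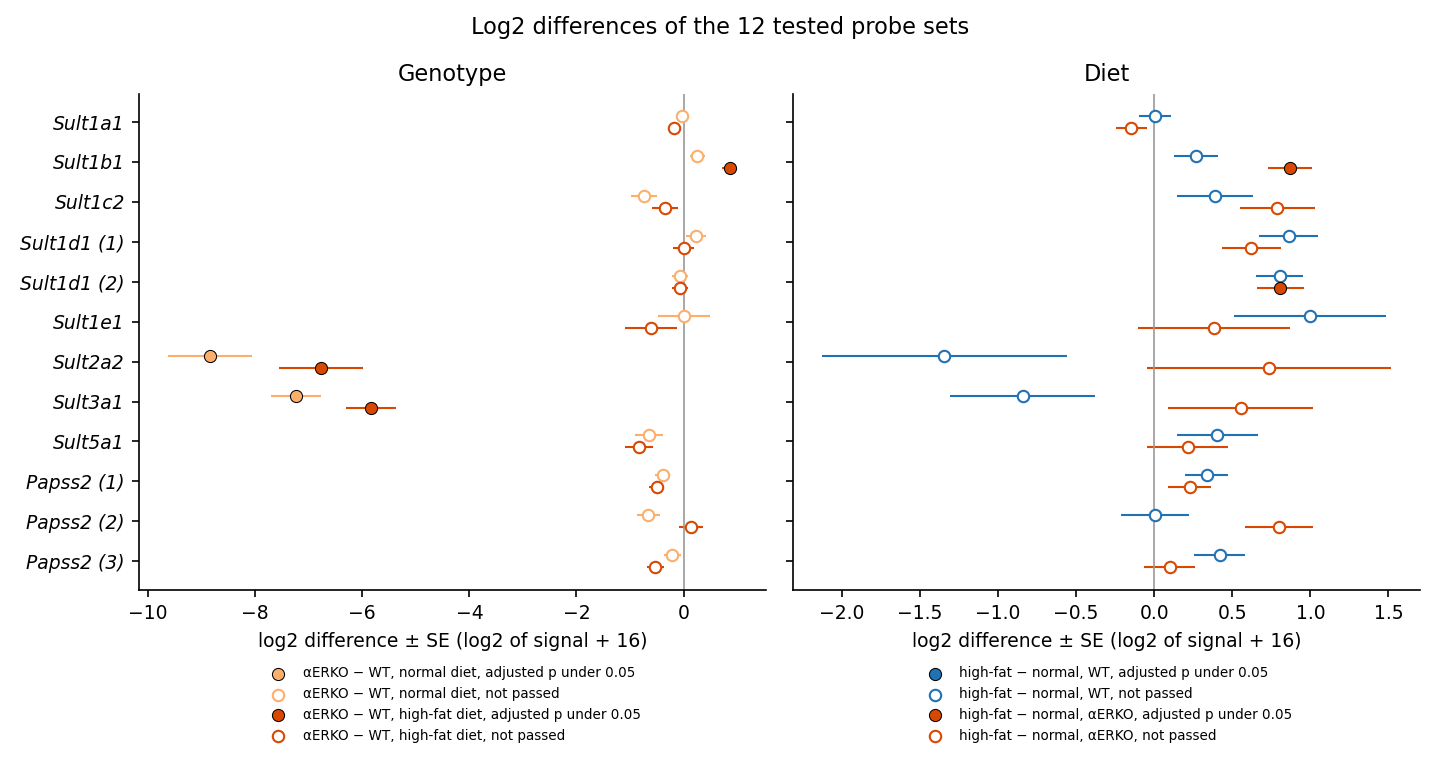
Difference in log2(signal + 16) of the 12 tested probe sets, as αERKO minus WT (left) and high-fat minus normal diet (right), with SE bars from limma; filled points have an adjusted p under 0.05. Numbers in brackets order the probe sets of a gene by mean signal. Sult2a2 and Sult3a1 lie between -8.84 and -5.84 in the left panel, and all other points there lie within 1 log2 unit of 0.

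Counted over the 12 tested probe sets, 2 were called for genotype on normal diet, where 0.677% of all tested were called, and 3 on high-fat diet (1.29%), of which Sult1b1 was the only 1 higher (0.728% of all called higher). For diet, 0 were called in WT (0.0275%) and 2 in αERKO (0.181%), both higher (0.118%), namely Sult1b1 and 1418138_at of Sult1d1. The interaction gave 0 of 12 with limma and 0% of all tested, while 2 of the 12 and 5.45% of all had an unadjusted p under 0.05. In the averaged contrasts 5 were called for genotype (3.21%), 1 higher (1.59%) and 4 lower (1.62%), and 3 for diet (0.492%), all higher (0.327%). The median log2 difference of the 12 was -0.30 and -0.42 for genotype (normal, then high-fat diet) and 0.36 and 0.59 for diet (WT, then αERKO), against -0.05, -0.05, -0.01 and -0.01 over all tested probe sets. A probe set that passed the filter only through the WT arrays had to differ, so these counts describe the set and do not stand as a test of it. Sult2a2 passed in this way, with no αERKO array above its median. Sult3a1 did too, since its 1 αERKO array above the median was short of the 3 needed. The comparisons share groups and are not independent of each other.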

How the data were processed

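Total liver RNA of 12 samples was hybridised on Affymetrix 3' expression arrays. Per the submitters' processing notes, Affymetrix Expression Console and the MAS5 algorithm were used; their versions are not given in the sources used here. For every probe set the authors deposited a MAS5 signal, an intensity on a linear scale. On each array the mean of the intensities without the lowest and highest 2% was 500, as the values show, so the arrays already shared a scale. MAS5 treats each array alone, and signals near background scatter widely on a log scale. Detection flags, scan batches and protein sequences were not used here. Of the 45101 probe sets, 34958 had 1 gene symbol in the platform annotation, 932 several and 9211 were not listed. Positions and promoter windows come from RefSeq tables of GRCm38.p6. Gene positions are not probe positions.

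Differences were fitted in R 4.3.3 with limma 3.58.1 on log2(signal + 16) for all 25412 probe sets above their array's median on at least 3 of 12 arrays. The model had 1 mean per group, all 12 arrays, 8 residual degrees of freedom and moderated variances with an intensity trend. Tests were two-sided, with Benjamini-Hochberg adjustment over all tested probe sets and calls under 0.05. The pseudocount of 16 understates differences at low signal. The fit was tested on simulated data. Whether replicates are separate animals is not in the labels. P-values thus cover the spread between these samples only, which may be technical. The number of arrays limits the precision. Errors of differences are standard errors of the model.

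Every gene named in the rule is described, with the probe set of highest mean signal in full. Other sulfotransferase genes and 25 sulfate genes are given by counts and, where called, by values. Genes like Sult3a1 are the 5 with the smallest root mean square distance. These genes and lists, and the averaged contrasts, were chosen with earlier results of these data known. Alternatives were 2 other pseudocounts, 2 other filters, 2 other scalings, 1 probe set a gene, 3 other fits, a replicate block, each array left out, and arrays with pancreatic or muscle transcripts left out. Deviations from group means correlated at -0.27 to 0.21 between same-numbered samples (median -0.03, 18 pairs) and at -0.20 to 0.24 between others (36 pairs). No pairing by replicate number was thus seen over all tested probe sets, though one that affects few genes could be missed. The labels do not say what a shared number means.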

Additional observations from a re-analysis of the deposited data

How the results depend on the processing

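The diet calls in αERKO were the least stable. For genotype on normal diet 2 of the 12 probe sets were called under all 25 alternatives. For genotype on high-fat diet the count of 3 became 5 with array quality weights and 2 without the arrays rich in pancreatic transcripts, where Sult1b1 was lost, and was 3 without each single array. For diet in WT the count of 0 ranged from 0 to 1 without single arrays, the 1 being without αERKO normal replicate 1. For diet in αERKO the count of 2 ranged from 0 to 1 without single arrays. It was 4 with array quality weights. It was 1 with a pseudocount of 1, without the filter, with quantile normalization, with 1 probe set a gene, with the replicate block and without the arrays rich in pancreatic transcripts. It was 0 with median centring, without the intensity trend, with only the groups compared and without the arrays with muscle transcripts. For genotype averaged over diets the count of 5 ranged from 3 to 5 without single arrays and was 3 with median centring, 3 without the trend, and 2 without the arrays with pancreatic or with muscle transcripts. For diet averaged over genotypes the count of 3 ranged from 1 to 3 without single arrays and was 1 with median centring, 0 without the trend, 1 without the arrays with pancreatic transcripts and 0 without those with muscle transcripts. The interaction gave 0 under all alternatives.

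For the members and the 4 other genes given with values, 26 results of single probe sets were called, and in 116 of their 636 values under alternatives the call was lost. Of 2095 values of the 86 results not called, 7 gained a call. In 0 values did a call turn direction. Leaving out the arrays with pancreatic or muscle transcripts leaves 1 array in a group. Over all tested probe sets, calls ranged from 47 to 190 (172 as reported) for genotype on normal diet, 74 to 1488 (327) on high-fat diet, 0 to 22 (7) for diet in WT, 9 to 194 (46) in αERKO, 188 to 1309 (816) for genotype averaged over diets and 14 to 205 (125) for diet averaged over genotypes, so background percentages move too. Median centring moved the median of all genotype differences by 0.14 on normal diet and 0.10 on high-fat diet. It put 60.3% of calls on normal diet higher, where 84 of 172 were higher as reported, 75.7% for genotype averaged over diets (404 of 816) and 78.8% for diet averaged over genotypes (83 of 125). The cause was not tested. The replicate block changed no member's call but that of Sult1d1 1418138_at in αERKO (adjusted p = 0.0531) and of Sult5a1 averaged over diets (0.0630). Signals below the array medians, as of Sult2a2 and Sult3a1 in αERKO, limit how exactly a difference is known.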
